A study of Mus musculus with 4 samples.

Results

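The cells described here are bone marrow macrophages that carried complement C1q and Vcam1 transcripts. They were selected by their own counts: a cell barcode was taken when C1qa, C1qb and C1qc together had at least 3 UMIs (unique molecular identifiers, each standing for 1 captured RNA molecule), Vcam1 at least 1, and Cxcl12, the chemokine of marrow stroma, at most 2. After removal of barcodes below 300 genes or above 20% mitochondrial UMIs, 39743 were kept, and 410 of them (1.03%) met this rule. They numbered 60, 106, 116 and 128 in the libraries vehicle 1, vehicle 2, PM 1 and PM 2.

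The libraries came from the 5TMM mouse model of multiple myeloma, in which 5TGM1-luc myeloma cells were injected intravenously into C57BL/KawRij mice at 6 weeks of age. All 4 mice carried the tumor. At 3 weeks after injection, 2 of them received vehicle and the other 2 received purinostat mesylate (PM), an inhibitor of class I and IIb histone deacetylases, at 10 mg/kg for 24 h. Total marrow was taken after lysis of red cells, with no sorting, and 1 droplet-based 3′ library was made per mouse, so that a library is the replicate and the 2 libraries of a group measure the spread between mice. The deposited libraries held 9261, 7826, 13387 and 9269 kept cells with medians of 6067, 5330.5, 4717 and 4805 UMIs.

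Macrophages of the marrow that carry VCAM1 sit at the centre of erythroblastic islands, where red cell precursors mature around them and shed nuclei that the macrophage digests. They also clear aged neutrophils and spent red cells, break down haem with haem oxygenase (Hmox1) and return the iron to the circulation through ferroportin (Slc40a1). The transcription factor Spic is known to be induced by haem in such cells.

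These barcodes were shallow. Their median depth was 1156, 944, 1611.5 and 922.5 UMIs in vehicle 1, vehicle 2, PM 1 and PM 2, which was 19.1%, 17.7%, 34.2% and 19.2% of the median of the library. Under 1000 UMIs were found in 28 of 60, 56 of 106, 41 of 116 and 75 of 128 macrophages, against 1.86%, 3.98%, 2.12% and 3.30% of the other kept cells of the same libraries. Their median mitochondrial share was 3.32%, 3.68%, 3.22% and 4.03%, against 1.02%, 1.20%, 1.69% and 1.26% of all kept cells. A few deep barcodes dominated the sums: the 5 deepest held 40.3%, 28.4%, 49.6% and 34.8% of all macrophage UMIs, and the single deepest, in PM 1, had 111024 UMIs, or 15.6% of that library's 712534, with 3 C1q and 2 Vcam1 UMIs. The other sums were 291378 (vehicle 1), 284472 (vehicle 2) and 389851 UMIs (PM 2). Only 1 barcode sequence occurred among the macrophages of more than 1 library, and 6 of the macrophage sequences were found in another library in a cell of any kind.

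The genes of the rule are given as a description, without a test. Vcam1 stood at 3034, 3498, 1676 and 2893 CPM (the gene's UMIs scaled to the summed total of the cell group in that library) in the summed macrophages of vehicle 1, vehicle 2, PM 1 and PM 2. C1qa stood at 1596, 2123, 1210 and 2029 CPM. PM 1 was the lowest library for both. The median macrophage had 7, 8, 10 and 9 C1q UMIs. At the edge of the rule, 47 macrophages had exactly 3 C1q UMIs, with a median depth of 3046 UMIs, and 61 had exactly 1 Vcam1 UMI. The macrophages with exactly 3 C1q UMIs numbered 6, 13, 15 and 13 in vehicle 1, vehicle 2, PM 1 and PM 2 and held 22.4%, 11.3%, 32.3% and 27.7% of all macrophage UMIs, so that barcodes at the edge of the rule carried a large part of the sums. Just outside it lay 66 Vcam1-positive cells with 1 C1q UMI too few, whose median depth was 5401 UMIs, and 167 C1q cells with no Vcam1 UMI, whose median depth was 4287. A further 8 cells passed the C1q and Vcam1 limits but had over 2 Cxcl12 UMIs, and 402 of the 410 macrophages had none.

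The label was checked against markers outside the rule. Slc40a1 was found in 65.0%, 84.0%, 76.7% and 84.4% of the macrophages of vehicle 1, vehicle 2, PM 1 and PM 2, against 13.3%, 17.7%, 9.88% and 7.02% of T cells, which should lack it and were deeper (median 3738 to 4231 UMIs). Hmox1 was found in 71.7%, 87.7%, 79.3% and 84.4% of macrophages and in 5.33%, 7.44%, 6.48% and 5.57% of T cells. Both markers were thus met far more often than in T cells despite the lower depth. In classical monocytes Slc40a1 was found in 17.5%, 10.9%, 13.3% and 11.1% and Hmox1 in 40.5%, 39.2%, 26.4% and 24.4%. In C1q cells without Vcam1 Slc40a1 was found in 12.8%, 38.2%, 32.3% and 28.1% and Hmox1 in 35.9%, 55.9%, 35.5% and 53.1%. Adgre1, which encodes the macrophage surface protein F4/80, was found in 50%, 44.3%, 31.9% and 39.8% of macrophages and in 1.78%, 1.40%, 3.09% and 0.969% of T cells. In classical monocytes it was found in 45.9%, 42.9%, 36.9% and 31.4%, and in C1q cells without Vcam1 in 64.1%, 35.3%, 45.2% and 25%, so that Adgre1 did not set the macrophages apart from these deeper cells. Markers of the other Vcam1-bearing cells of marrow were low, with some exceptions. Of 12 stromal genes, Lepr, Adipoq, Col1a2, Col3a1, Pdgfra, Ebf3 and Dcn had no UMI in any of the 4 sums, and the highest of the list was Lpl, a lipase that macrophages also make, at 295, 791, 247 and 290 CPM. The 9 endothelial genes summed to 120, 116, 50.5 and 74.4 CPM. The endothelial cadherin Cdh5 was at 0 in each sum, and Stab2, a scavenger receptor of sinusoidal endothelium, was at 61.8, 56.2, 15.4 and 20.5 CPM. Stab2 and both stromal genes that could be tested, Lpl and Kitl, were called higher in the macrophages than in classical monocytes, in the comparison described further on. The part of stromal or endothelial cells in these values was not tested.

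The share of macrophages did not separate the groups. It was 0.648% (exact 95% binomial interval 0.495 to 0.833) of kept cells in vehicle 1, 1.35% (1.11 to 1.64) in vehicle 2, 0.867% (0.717 to 1.04) in PM 1 and 1.38% (1.15 to 1.64) in PM 2. The intervals cover counting error only, since barcodes of 1 mouse are not independent of each other. The groups overlapped, and the 2 libraries of each group differed from each other by more than the group means (1.00% with vehicle and 1.12% with PM) did. An exact two-sided permutation test over the 4 libraries gave p = 0.667, where 2 against 2 cannot go below 0.333.

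Many of the UMIs under these barcodes were transcripts typical of neutrophils or red cells, and they were concentrated in a minority of barcodes. Neutrophil transcripts were counted as the UMIs of 29 genes of the primary granule (such as Elane and Mpo), the secondary granule (Ngp, Camp, Ltf), calprotectin (S100a8, S100a9) and the late neutrophil (Retnlg). In the median macrophage they made up 0.582%, 0.449%, 1.14% and 0.751% of UMIs in vehicle 1, vehicle 2, PM 1 and PM 2. A separate set of 68 barcodes held at least 5% and up to 48.3%, with medians of 28.0% to 32.2% in the 4 libraries. The median neutrophil of these libraries held 35.3% to 37.6%. The 68 barcodes had medians of 4, 6.5, 4.5 and 5 C1q UMIs in vehicle 1, vehicle 2, PM 1 and PM 2. Macrophages under 5% neutrophil and globin UMIs had 8, 8, 11 and 10. Only 12 macrophages had a neutrophil share between 2.5% and 10%, but they included deep barcodes just above the limit. In PM 1 these had 63549 UMIs (5.046%) and 30379 UMIs (5.119%), and in PM 2 36665 UMIs (5.133%). The PM 1 barcodes under 5% neutrophil and globin UMIs summed to 149055 UMIs. Sums that leave out the barcodes above the limit thus depend on where it is drawn.

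**Figure D1:**
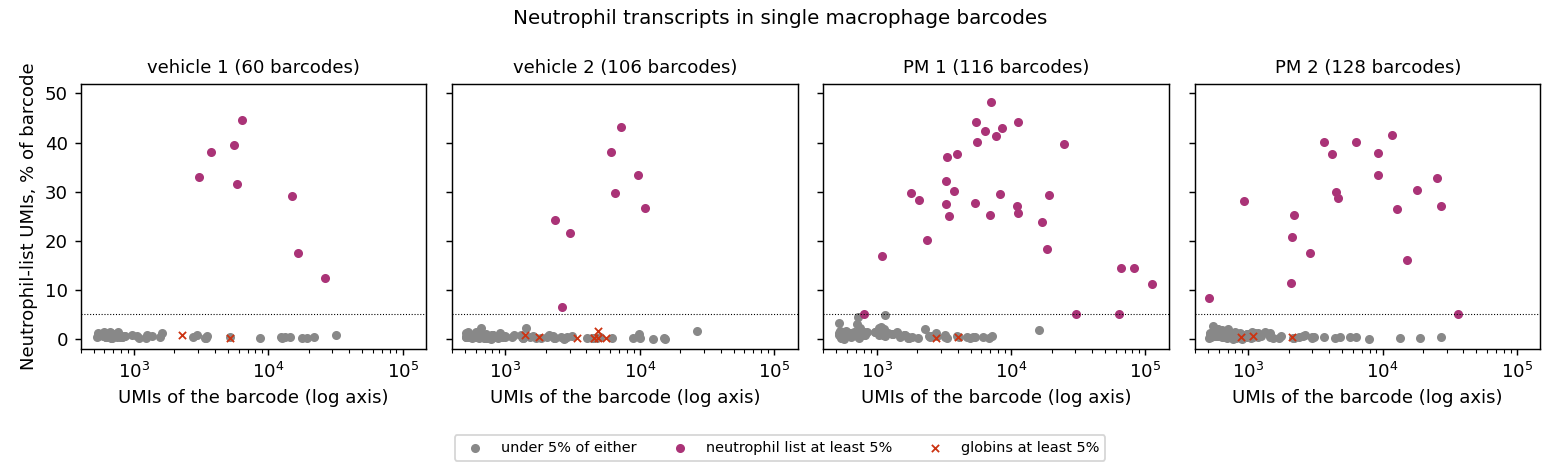
Share of neutrophil-list UMIs (vertical axis, percent of the barcode's UMIs) against the depth of each macrophage barcode (horizontal log axis, UMIs), 1 panel per library and 1 point per barcode, with a dotted line at 5%. Most barcodes lie near 0, and a separate group of mostly deeper barcodes, 32 of 116 in PM 1, reaches up to 48.3%. Crosses are barcodes with at least 5% globin UMIs.

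Barcodes with at least 5% neutrophil UMIs were 13.3%, 7.55%, 27.6% and 15.6% of the macrophages of vehicle 1, vehicle 2, PM 1 and PM 2. The same share was 24.6%, 15.5%, 24.0% and 24.1% in classical monocytes (at least 3 Ly6c2 and 1 Ccr2 UMI, without C1q, Vcam1, Mki67 or Top2a), and 17.3%, 20.9%, 16.5% and 9.93% in T cells (at least 2 Cd3 UMIs, without C1q or Cd79a). The ranges of the macrophages and the T cells overlapped, and in vehicle 1 and vehicle 2 the macrophage value was the lower. Calprotectin gave 66.3% to 70.3% of the neutrophil UMIs in these macrophage barcodes and 69.8% to 72.5% in those of T cells. The primary granule genes gave 3.55%, 0.00671%, 5.15% and 4.06% in the macrophages of vehicle 1, vehicle 2, PM 1 and PM 2 and 0.499%, 0.0237%, 2.16% and 0.585% in the T cells. In the B cells they gave 4.69%, 4.82%, 4.51% and 7.52%, above the macrophages in 3 of the 4 libraries. Of the 82 macrophages with at least 5% neutrophil or globin UMIs, 9 were called doublets from simulated doublets, and 10 of all 410. The threshold marked 26.2%, 30.9%, 46.6% and 25.7% of the simulated doublets themselves in vehicle 1, vehicle 2, PM 1 and PM 2. Whether these barcodes held a neutrophil beside a macrophage, an attached cell or RNA taken up by the macrophage was not tested.

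Globin transcripts followed another pattern. Of 410 macrophages, 204 (49.8%) had no globin UMI at all. At least 5% globin UMIs were found in 14 barcodes, 2 of 60, 7 of 106, 2 of 116 and 3 of 128 in vehicle 1, vehicle 2, PM 1 and PM 2, with a maximum of 81.9%. None of them was among the 68 barcodes rich in neutrophil RNA. The share was 3.33%, 6.60%, 1.72% and 2.34% in macrophages. It was 0%, 0%, 0.240% and 0% in classical monocytes and 0%, 0%, 0.772% and 0% in T cells, so that each macrophage value lay above each of theirs. It was 2.56%, 5.88%, 0% and 6.25% in C1q cells without Vcam1, which overlapped the macrophages. With 2 to 7 such barcodes in a library, the precision is low.

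**Figure D2:**
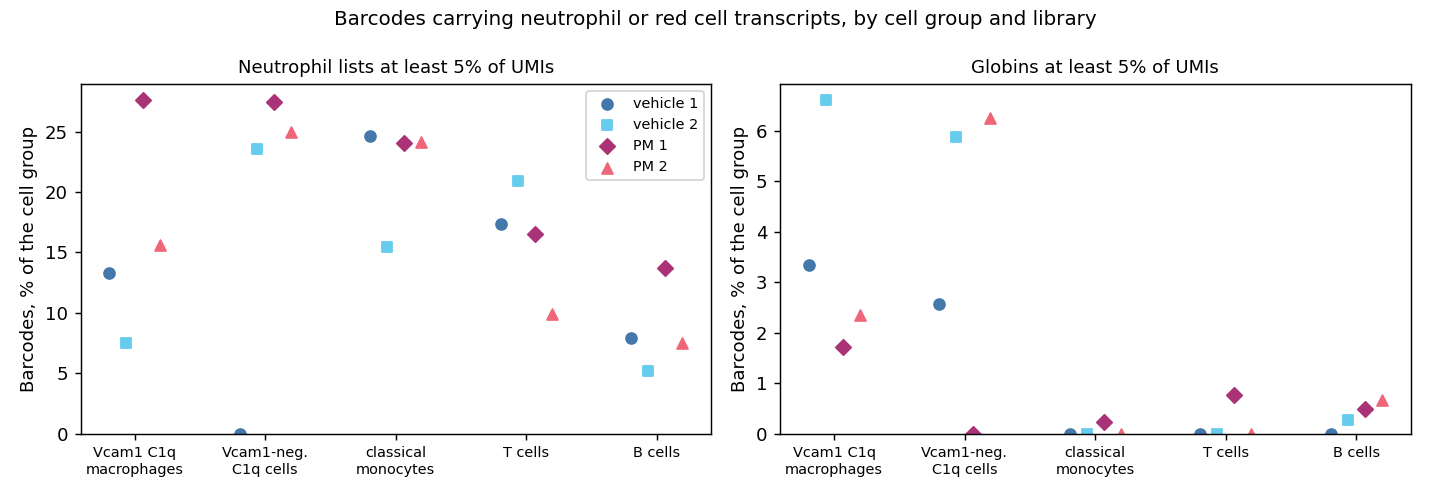
Barcodes with at least 5% of their UMIs from the neutrophil lists (left) or from globins (right), as percent of the cell group (vertical axes), for 5 cell groups (horizontal axis) and the 4 libraries (1 point each). The neutrophil shares of macrophages, 7.55% to 27.6%, overlap those of monocytes and T cells, whereas the globin shares of macrophages, 1.72% to 6.60%, lie above theirs.

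The other 328 macrophages were compared with other barcodes of low depth. In those under 1000 UMIs, globins made up 0.0856%, 0.143%, 0.132% and 0.209% of UMIs in vehicle 1, vehicle 2, PM 1 and PM 2. In other cells of that depth, neutrophils left out, they made up 0.115%, 0.279%, 0.172% and 0.252%. Neutrophil transcripts made up 0.743%, 0.632%, 1.21% and 0.835% in these macrophages and 1.13%, 1.03%, 1.54% and 1.02% in the other cells. The limit was set on these UMIs in each cell group, so no order of the groups is read from these shares or from those that follow. At all depths, globins made up 0.0333%, 0.131%, 0.0483% and 0.0966% of UMIs in these macrophages. They made up 0.00736%, 0.00801%, 0.0102% and 0.0162% in monocytes below the limit, which were deeper. In T cells below the limit, also deeper, they made up 0.00734%, 0.0165%, 0.0224% and 0.0464%. The 21 B cells of PM 1 under 1000 UMIs and below the limit had 0.0114%, against 0.132% in the macrophages of that depth. All other cells below the limit, neutrophils left out, had 0.0416%, 0.163%, 0.0512% and 0.114% globin UMIs at all depths. Which cells made up the other barcodes of low depth was not tested.

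Summed over all macrophages, globins made up 1.07% and 3.63% of UMIs with vehicle and 0.362% and 0.186% with PM. Neutrophil transcripts made up 7.16% and 5.69% with vehicle and 14.8% and 13.2% with PM. Neither pair of groups overlapped, and the exact two-sided permutation test gave p = 0.333 for each, the smallest that 2 against 2 allows. The difference between the group means was -2.07 percentage points of globin in the sums and 0.0142 in the per-cell medians. For neutrophil transcripts the group means were 6.42% with vehicle and 14.0% with PM in the sums, and 0.515% and 0.947% in the per-cell medians, which did not overlap between the groups either. The ratio of globin to neutrophil UMIs was 0.149, 0.638, 0.0245 and 0.0141 in the macrophages of vehicle 1, vehicle 2, PM 1 and PM 2, and 0.00302, 0.000983, 0.0166 and 0.00787 in T cells. In each library the ratio of the macrophages was above that of the T cells. In C1q cells without Vcam1 it was 6.59, 0.0998, 0.00298 and 0.160, above the macrophages in vehicle 1 and PM 2. In other cells under 1000 UMIs the ratio was 0.0760, 0.0986, 0.0411 and 0.106, higher than in the macrophages of both PM libraries. Without the barcodes of at least 5% neutrophil or globin UMIs it was 0.0757, 0.239, 0.0543 and 0.198 in macrophages and 0.0153, 0.0541, 0.0428 and 0.101 in T cells. In C1q cells without Vcam1 it was then 0.0310, 0.286, 0.0701 and 0.5. The limit was set on these UMIs in each cell group, so no order of the groups is read from the ratios without those barcodes. The source of these transcripts was not tested.

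The macrophage programme was then measured against C1q cells without Vcam1 of the same libraries (39, 34, 62 and 32 cells), in a fit with the library as a block (edgeR's quasi-likelihood test, Benjamini-Hochberg adjustment over all genes, called at an adjusted p below 0.05 and an absolute log2 fold change above 0.5). Of 4800 genes outside the rule, 82 (1.71%) were called higher and 77 (1.6%) lower in the macrophages. The genes called higher included those of iron export and haem breakdown, and those called lower included MHC class II genes and Ccr2. Leaving out PM 1 or PM 2 reduced the calls from 159 to 75 or 83.

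Slc40a1, the iron exporter, stood at 638, 2239, 761 and 1295 CPM in the macrophages of vehicle 1, vehicle 2, PM 1 and PM 2, and at 41.3, 150, 100.2 and 179 in the C1q cells without Vcam1. All macrophage values exceeded all of the others. Its log2 fold change was 3.37 (SE 0.24, edgeR adjusted p = 7.57e-06). Hmox1 stood at 666, 2679, 998 and 2250 CPM against 202, 305, 130 and 345, a log2 fold change of 2.66 (SE 0.24, edgeR adjusted p = 9.25e-05). Its level was lowest in vehicle 1, as was that of Slc40a1. Spic stood at 202, 366, 185 and 292 CPM against 46.5, 27.7, 10.02 and 34.5, a log2 fold change of 3.26 (SE 0.34, edgeR adjusted p = 1.30e-04). Of the 31 genes of haem and iron recycling, 22 were tested, 6 were called higher and none lower, with a median log2 fold change of 0.14 against -0.02 over all genes. Besides these 3, the called members were Trf (transferrin, log2 fold change 1.42), Ncoa4, which delivers ferritin to the lysosome (1.43), and Slc48a1, a haem transporter (1.38). The ferritin heavy chain Fth1 was abundant in both groups and was not called (0.25, SE 0.36).

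Adgre1 was not called (0.70, SE 0.28, edgeR adjusted p = 0.28). Among the other largest differences, Ccr3, a chemokine receptor, was higher by a log2 fold change of 4.24 (SE 0.39), Fcna, a soluble lectin that starts the complement cascade, by 3.87 (SE 0.25), Cd5l, a secreted protein of tissue macrophages, by 3.85 (SE 0.29) and Myo10, an unconventional myosin, by 3.50 (SE 0.39). Fcna stood at 384, 875, 337 and 721 CPM in the macrophages, against 20.7, 77.5, 18.0 and 55.2. Of 13 genes of complement and Fc receptors tested, 5 had a positive and 8 a negative value, and 3 were called higher and 1 lower. In the lists of macrophage identity and efferocytosis, the mannose receptor Mrc1 (2.59) and also Mertk (2.77) and Axl (1.69), receptors that bind dying cells through bridging proteins, were called higher. The phosphatidylserine receptor Timd4, called too, is given by level, at 78.9, 116, 51.9 and 61.6 CPM in the macrophages and at 0, 0, 4.01 and 20.7 in the C1q cells without Vcam1. Of 17 efferocytosis genes tested, 4 were called higher and none lower. Of 17 genes of the identity list tested, 7 had a positive and 10 a negative value, 5 were called higher and 1 lower, with a median of -0.25 against -0.02 over all genes tested. Igf1, an insulin-like growth factor and a member of the island and niche list, was higher by 3.07 (SE 0.32), and Itga4, the integrin chain that binds VCAM1, was lower by 1.06. Of 9 genes of that list tested, 2 were called higher and 1 lower. Of 28 lysosomal genes tested, 3 were called higher, namely Ctsd (1.75), Creg1 (1.24) and Lgmn (0.90), and 23 of the 28 had a positive value. Of 17 transcription factors tested, 8 had a positive and 9 a negative value, and 3 were called higher and 1 lower. Maf, which is typical of resident macrophages, was higher (1.64) and Nr4a1 lower (-1.56). In lipid handling, Abca1, a cholesterol exporter (2.42, SE 0.30), and the lipase Lpl (1.51, SE 0.25) were higher, as 2 of 15 genes tested with none lower.

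The genes lower in the macrophages included those of antigen presentation. H2-Ab1, an MHC class II chain, stood at 1236, 851, 518 and 654 CPM in the macrophages and at 3975, 3577, 2813 and 2091 in the C1q cells without Vcam1. Its log2 fold change was -1.96 (SE 0.17, edgeR adjusted p = 4.60e-05). Of 17 antigen presentation genes tested, all had a negative value, 6 were called lower and none higher. Cd74, the invariant chain, was lower at -1.63. Ccr2, the chemokine receptor of classical monocytes, was lower by 2.11 (SE 0.20), Itgax (CD11c) by 2.54, and the inhibitory or activating receptors Sirpb1a, Sirpb1c and Klra2 by 4.75, 2.69 and 2.62. Hspa1b, an inducible heat shock gene and a sign of handling stress, was lower by 4.39 (SE 0.37). Of 16 handling-stress genes tested, 4 were called lower and none higher.

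**Figure D3:**
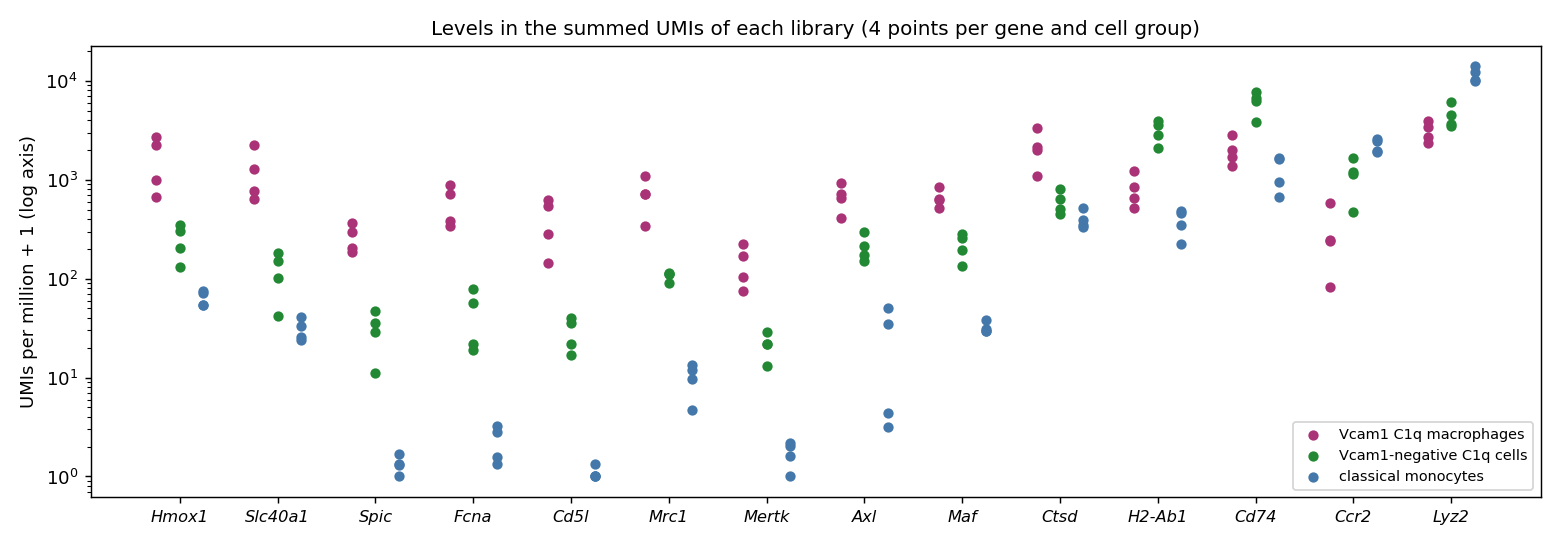
Level of 14 genes (horizontal axis) in CPM plus 1 (vertical log axis), with 1 point per library for macrophages, C1q cells without Vcam1 and classical monocytes. Hmox1, Slc40a1, Spic, Fcna, Cd5l and Mrc1 are highest in the macrophages in each library, and H2-Ab1, Cd74 and Ccr2 are lower in macrophages than in C1q cells without Vcam1.

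Leaving out the barcodes with at least 5% neutrophil or globin UMIs from each cell group, a choice made after seeing the data, changed the count to 158 higher (4.44% of 3559 genes) and 45 lower (1.26%), and 98 of the 159 genes called before were called again. Slc40a1 then differed by a log2 fold change of 4.51 (SE 0.31) and Hmox1 by 3.40 (SE 0.29). Adgre1 passed the test there (1.19, edgeR adjusted p = 0.019). Of 26 lysosomal genes tested, 9 were then called higher. Antigen presentation differed less: 5 of 17 genes were above 0 and 4 were called lower, with a median of -0.29 against -0.44 in all barcodes.

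Against classical monocytes of the same libraries (573, 375, 832 and 398 cells), 1158 (12%) of 9649 genes outside either rule were called higher and 999 (10.4%) lower in the macrophages. The monocytes were deeper, with medians of 8726, 8700, 6428 and 6613 UMIs. Cd5l had no UMI in the monocytes of 3 libraries and 0.349 CPM in those of PM 1, and stood at 144, 629, 283 and 539 CPM in the macrophages. Spic reached at most 0.697 CPM in a monocyte library, Igf1 1.05, the potassium channel gene Kcnj10 1.22 and Mertk 1.18, so that these genes are given by level and not by fold. The mannose receptor Mrc1 was higher by a log2 fold change of 6.25 (SE 0.40) and Maf by 4.38 (SE 0.19). Adgre1 was higher by 1.08 (SE 0.25, edgeR adjusted p = 0.0125), a call that was lost under a stricter cell filter (0.81). Hmox1 was higher by 4.54 (SE 0.51). Its call was lost (3.81) when cells were thinned to 5000 UMIs, which also left out all cells below that depth and kept 17, 15, 27 and 16 macrophages. Of 27 haem and iron genes tested, 16 were called higher and 2 lower, with a median of 1.08 against -0.01 over all genes. Bach1, a haem-sensing repressor of Hmox1, was one of those lower (-1.30, SE 0.16). In the island and niche list, 11 of 16 were called higher and 1 lower, and Kitl, the ligand of the Kit receptor of blood progenitors, stood at 51.5, 109, 29.5 and 43.6 CPM in the macrophages and at 0, 0, 0 and 0.694 in the monocytes. Of 29 lysosomal genes, 10 were called higher, including Ctsb (2.26) and the protease Lgmn (3.47), and 2 lower.

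Interferon response genes were mostly lower than in monocytes. Of 52 interferon response genes tested, 29 were called lower and 1 higher, with a median log2 fold change of -0.71. With the barcodes rich in neutrophil or globin RNA left out, 14 of 50 were lower and 5 higher, where 10.5% of all 8967 genes of that fit were lower and 12.5% higher. Lyz2, the lysozyme of monocytes and macrophages, was lower by 1.92 (SE 0.13). The lowest values among the named genes were those of Siglech, at 0, 31.6, 0 and 0 CPM in the macrophages, and Ccr9, at 0, 14.1, 0 and 5.13. Both are known from plasmacytoid dendritic cells, which carry Ly6c2 and Ccr2 too. They were followed by the proteoglycan Vcan (-3.73), Hopx (-3.30), Rnase6 (-3.23) and Rnd3 (-3.02). Without vehicle 2, or without PM 1, Vcan and Rnd3 were no longer called, with values from -3.59 to -2.69. Siglech reached 130, 362, 378 and 538 CPM in the monocyte sums, and the part of such cells in this comparison was not tested. Of 16 cell cycle genes, 14 were called higher in the macrophages and none lower. All 5 primary granule genes were called higher too. The rule for the monocytes left out cells with Mki67 or Top2a and that for the macrophages did not.

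The level of a gene also moved with the depth of the barcode. Among macrophages with under 5% neutrophil and globin UMIs, Hmox1 stood at 5402, 7076, 6109 and 8027 CPM in the barcodes under 1000 UMIs of vehicle 1, vehicle 2, PM 1 and PM 2, and at 197, 1192, 1854 and 1253 in those with at least 5000 UMIs. Slc40a1 stood at 2460, 3689, 3205 and 3927 CPM in the former and at 579, 2138, 2535 and 1340 in the latter. Both genes were thus lower in the deep barcodes of each library. C1qa, a gene of the rule, stood at 5028, 4441, 6939 and 6264 CPM in the shallow barcodes. In the deep ones it stood at 1196, 1346, 4155 and 1265. The deep ones of vehicle 1 included barcodes of 17700 UMIs with 3 C1q UMIs and of 21781 UMIs with 4. The part of other cells in the deep barcodes was not tested. The macrophages with vehicle had 10 and 9 barcodes of at least 5000 UMIs, and those with PM 6 each. Lyz2 was higher in the deep barcodes with vehicle, at 5008 and 3047 CPM against 1605 and 1280 in the shallow ones, and lower with PM, at 1726 and 739 against 1886 and 1341. The 8 classical monocyte genes summed to 4026, 1413, 3861 and 1262 CPM in the macrophages of the 4 libraries, with Ly6c2 the most abundant, and their part in the comparisons was not tested. Because the rule counts UMIs, a shallow barcode needed a higher share of C1q and Vcam1 UMIs to pass it. How far this selection moved with the other genes was not tested.

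The comparison of PM with vehicle asked whether 24 h of the drug changed the macrophages. No gene was called: 0 of 5670 genes outside the rule (0%) passed in edgeR, 514 had an unadjusted p below 0.05, and DESeq2 called 4 (1 higher and 3 lower with PM). The count was not stable: leaving out 1 library gave 287 calls without vehicle 1, 64 without vehicle 2, 37 without PM 1 and 69 without PM 2, with the lone library of a group assumed to vary like the others. A stricter selection (at least 5 C1q and 2 Vcam1 UMIs) gave 20. With 2 mice a group, non-overlapping values are common, and 38.7% of all genes tested had them. The values that follow are descriptions of genes that did not pass the test. In these sums, fewer macrophage molecules and a larger part of molecules from other cells cannot be told apart.

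Hmox1 did not order the groups in all barcodes: its values, 666 and 2679 CPM with vehicle and 998 and 2250 with PM, had a log2 fold change of -0.00 (SE 0.85). Slc40a1 was at 638 and 2239 with vehicle and 761 and 1295 with PM, a log2 fold change of -0.44 (SE 0.67). For both genes the 2 vehicle mice lay further apart than the groups did. Without the barcodes of at least 5% neutrophil or globin UMIs, Hmox1 was at 866 and 3062 CPM with vehicle and 4019 and 4142 with PM (1.09, SE 0.58, edgeR adjusted p = 1.00), with no overlap at this limit. These sums differed in depth: barcodes of at least 5000 UMIs held 78.2% and 52.4% of their UMIs with vehicle and 31.5% and 42.8% with PM. They also depended on the limit: PM 1 barcodes of 63549 and 30379 UMIs lay just above it, at 5.046% and 5.119%, against 149055 UMIs kept. The kept barcodes of PM 1 held 599 Hmox1 UMIs and all those left out 112. The lack of overlap is thus given for this limit only. By depth class, the groups overlapped for Hmox1 in the barcodes under 1000 UMIs and did not in those of at least 5000, at the values given above. The deep barcodes included some with few C1q UMIs, as given above. From 1000 to under 5000 UMIs Hmox1 was at 1670 and 3823 CPM with vehicle and 4630 and 4655 with PM, with no overlap. Slc40a1 summed over all depths without those barcodes was at 841 and 2613 with vehicle and 3012 and 2259 with PM (0.64), and the groups overlapped. Adgre1 was at 281 and 366 with vehicle and 99.6 and 215 with PM (-0.99, SE 0.38, edgeR adjusted p = 0.48), with no overlap. Adgre1 without those barcodes was at 363 and 444 CPM with vehicle and 362 and 370 with PM (-0.09, SE 0.33), and the groups overlapped.

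The list medians differed with and without the barcodes of at least 5% neutrophil or globin UMIs, called mixed from here on. In all macrophages the median log2 fold change with PM was -0.71 for 18 macrophage identity genes, -0.86 for 13 island and niche genes, -0.45 for 24 haem and iron genes, -0.50 for 21 efferocytosis genes and -0.50 for 30 lysosomal genes, against 0.01 over all genes tested. The groups did not overlap for 12 of the 18 identity genes, 9 of the 13 island and niche genes, 13 of the 24 haem and iron genes, 13 of the 21 efferocytosis genes and 13 of the 30 lysosomal genes, where 38.7% of all genes tested did not. The 5 primary granule genes had a median of 1.46, the 10 secondary granule genes 1.05, and the 4 globins -2.96. Barcodes with at least 5% neutrophil or globin UMIs held 31.0% and 26.3% of macrophage UMIs with vehicle and 79.1% and 52.2% with PM. Without them the medians were 0.05 for identity, -0.11 for island and niche, -0.08 for haem and iron, 0.18 for efferocytosis and 0.13 for lysosome. Nothing is read from the granule and globin lists in that fit, since the limit was set on these genes. Other lists stayed below 0: the cytokine and chemokine list went from -0.68 (14 genes) to -0.33 (2 of 11 genes above 0), and the osteoclast list from -0.52 (12 genes) to -0.35 (2 of 9 above 0). The classical monocyte genes went from -0.51 (2 of 7 above 0) to -1.89 (0 of 7 above 0), none of them called. Without the mixed barcodes the 8 genes of that list summed to 5075 and 1393 CPM with vehicle and 1684 and 408 with PM, which overlapped, and their part in the other medians was not tested.

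**Figure D4:**
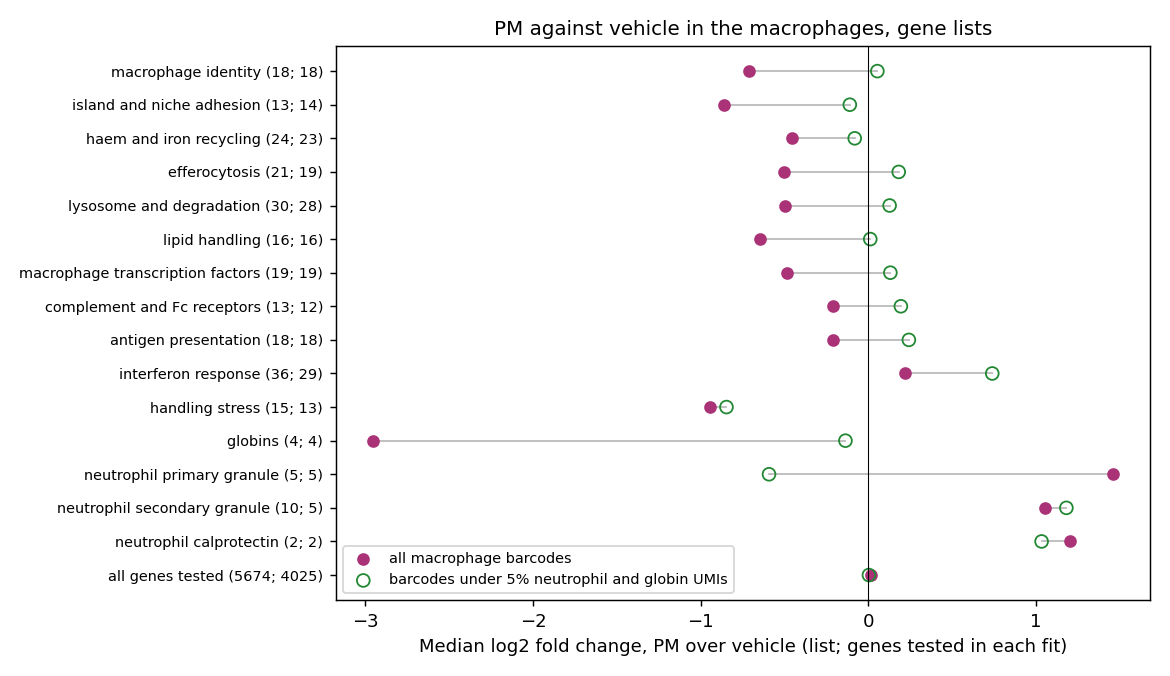
Median log2 fold change of PM over vehicle (horizontal axis) for 15 gene lists and all genes tested (vertical axis, with the numbers of genes tested in the 2 fits), in all macrophage barcodes (filled) and in those with under 5% neutrophil and globin UMIs (open). The 9 lists from macrophage identity down to antigen presentation sit between -0.86 and -0.21 when all barcodes are used and between -0.11 and 0.24 without the mixed ones. The neutrophil and globin lists are those on which the limit was set.

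The genes of the rule selected these cells, so their levels are a description. Without the mixed barcodes Vcam1 was at 4164 and 4159 CPM with vehicle and 6501 and 5467 with PM, and C1qa at 2149 and 2585 with vehicle and 4985 and 3729 with PM. No gene passed the edgeR test in that fit either, out of 4025 tested, with 163 at an unadjusted p below 0.05.

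Interferon response genes had positive medians in both fits, of 0.22 (24 of 36 genes above 0) in all macrophages and 0.74 (23 of 29 above 0) without the mixed barcodes, and none was called. Over all genes tested, 2896 of 5674 and 2028 of 4025 were above 0 in these fits. In all macrophages the groups did not overlap for 11 of the 36, where 38.7% of all genes tested did not. Irf7, a transcription factor of the type I interferon response, was at 44.8 and 42.9 CPM with vehicle and 168 and 177 with PM without the mixed barcodes. Rtp4, an interferon-induced gene, was at 14.9 and 33.4 with vehicle and 148 and 107 with PM. Neither pair of groups overlapped, but these sums differed in depth and depended on the limit, as described for Hmox1. The share of all genes without overlap was not counted in that fit, and these 2 genes were not measured by depth class. Both genes were chosen after their values were seen, for the smallest unadjusted p of that fit, and their edgeR adjusted p was 1.00. The handling-stress genes had a median of -0.95 in all macrophages (15 genes tested) and -0.85 without the mixed barcodes (13 genes tested), and none was called. Vehicle 1 alone was high for Fos, at 1201 CPM against 295 in vehicle 2 and 166 and 408 with PM. The part of this in the other differences was not tested.

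Of the histone deacetylase genes whose products PM inhibits, Hdac1 stood at 110, 73.8, 81.4 and 103 CPM in the macrophages of vehicle 1, vehicle 2, PM 1 and PM 2, Hdac2 at 61.8, 70.3, 58.9 and 77.0 and Hdac3 at 30.9, 42.2, 39.3 and 30.8. Their log2 fold changes with PM were 0.08, 0.10 and 0.05, all within 1 SE of 0. Hdac6, Hdac8 and Hdac10 did not pass the filter on low counts.

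Whether the macrophages responded otherwise than classical monocytes was tested as an interaction. Of 10602 genes, 54 (0.509%) were called, 11 with a higher and 43 with a lower PM effect in the macrophages. The lower ones included 7 of the 10 T cell genes tested, namely Trbc1, Trbc2, Trac, Cd3d, Cd8a, Lef1 and Lck. The T cell list summed to 285 and 239 CPM in the macrophages with vehicle and 35.1 and 15.4 with PM, and to 104 and 166 in the monocytes with vehicle and 332 and 526 with PM. The part of T cell RNA in the other calls was not tested. Also called lower were 3 of 22 antigen presentation genes, Cd74, H2-Aa and H2-Ab1, with a list median of -0.72. Of 52 interferon response genes tested, 1 was called lower, Rsad2, and none higher, with a median of -0.12. Without the mixed barcodes no gene of these 2 lists was called, and the medians were -0.21 and 0.39. The genes with the smallest adjusted p were globins, such as Hba-a1 at -5.01 (SE 0.27), and Chil3, a gene of neutrophils and monocytes, at 2.01 (SE 0.24). Hba-a1 was at 2917 and 9920 CPM in the macrophages with vehicle and at 813 and 372 with PM, and between 64.7 and 253 in each library without the mixed barcodes, which the limit on globin UMIs had fixed. In that fit 2 genes were called, and 1 of them was among the 54. This was Axl, at -4.38 (SE 0.44, edgeR adjusted p = 4.32e-04) in all barcodes and -3.53 (SE 0.46, edgeR adjusted p = 9.32e-04) without the mixed ones. Axl was at 2.16 and 3.35 CPM in monocytes with vehicle and at 49.7 and 34.0 with PM. In the macrophages it was at 656 and 921 with vehicle and 413 and 713 with PM, and the groups overlapped there. Without the mixed barcodes it was at 910 and 1168 CPM in the macrophages with vehicle and 1630 and 1277 with PM, with no overlap in these sums of unequal depth. Within each depth class the groups overlapped: Axl was at 2300 and 1807 with vehicle and 2413 and 2280 with PM under 1000 UMIs, at 1909 and 1352 against 1455 and 1435 from 1000 to under 5000 UMIs, and at 585 and 837 against 1470 and 514 from 5000 UMIs. The second gene was Ctsg, a primary granule protease and one of the genes on which the limit was set (-4.04 in that fit and -0.32, not called, in all barcodes).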

How the data were processed

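Single-cell RNA was measured in bone marrow of 4 mice. The authors aligned reads with Cell Ranger 6.0.1 and deposited raw counts (UMIs per gene and barcode), with no normalization. The paper's methods name GRCm38 and the submitters' processing notes GRCm39, so no coordinates are given. The deposited matrices hold 9516, 8242, 13848 and 9787 barcodes for vehicle 1, vehicle 2, PM 1 and PM 2.

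Cells were filtered at the thresholds of the study's methods, which kept more cells in both groups than the study states that it retained, for a reason not given in the sources used here. They were selected by raw counts. Counts were summed per library and cell group and tested with edgeR 4.0.16 (quasi-likelihood, TMM, filterByExpr), with DESeq2 1.42.0 as an alternative. A log2 fold change is on the scale of the fit, and levels are CPM, scaled to the total of the sum. Doublets were called in each library with Scrublet in scanpy 1.11.5 at Otsu's threshold on the simulated scores, because its own threshold marked 0.0108% of barcodes in vehicle 1 and 0% in PM 2, and they were kept in the main results. The steps were tested on simulated data. There, PM against vehicle recovered 14% of genes simulated at an absolute log2 fold change of 1 and 83% at 2. The interaction recovered 0% at 1 and 17% at 2. Each gene list was described by counts and medians.

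The strain is spelled as in the paper. The alternatives included another normalization, no filter on low counts, stricter selections, called doublets left out and each library left out. In another, cells of at least 5000 UMIs were thinned to 5000 and the others left out. Leaving out barcodes with at least 5% neutrophil or globin UMIs (called mixed) or with over 20000 UMIs was added after seeing the data.

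The members and gene lists were chosen with earlier results of these data known. Named genes were the rule's genes and markers, the 6 largest called differences each way with at least 50 CPM on average and 1 direction in 4 libraries, the 3 most abundant members of each macrophage list and up to 5 called ones, abundant globin and neutrophil genes, and the 4 interaction genes of smallest adjusted p; immunoglobulin, T cell receptor, mitochondrial and globin genes were left out of the ranking. The labels do not say that equal mouse numbers pair the mice. With 2 mice a group, the edgeR p-values of PM against vehicle rest on the spread between these libraries, estimated with information shared across genes. Those between cell groups rest on differences within the libraries.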

Additional observations from a re-analysis of the deposited data

Results flagged for a closer look

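The effect of PM differed between macrophages and classical monocytes for 54 genes by the interaction test. In the terms of the log2 fold change in macrophages minus that in monocytes, Hba-a1 was at -5.01, Hbb-bs at -4.53, Hba-a2 at -4.40, Chil3 at 2.01, Axl at -4.38 and Cx3cr1, a chemokine receptor of monocytes and macrophages, at 2.47. Without the barcodes rich in neutrophil or globin RNA, the values were -0.26 for Hba-a1, -0.76 for Hbb-bs, -1.35 for Hba-a2, 0.07 for Chil3, -3.53 for Axl and 3.38 for Cx3cr1, and only Axl of these 6 was called in that fit.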

How the results depend on the processing

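Between macrophages and C1q cells without Vcam1 (159 calls), no filter on low counts gave 472 calls, thinning each cell 57, and leaving out 1 library 75 to 182. Against monocytes (2157 calls), thinning gave 936. For PM against vehicle (0 calls), DESeq2 gave 4, no filter 105, the stricter gate 20, the stricter cell filter 6 and leaving out 1 library 37 to 287. With the replicate number as a block it gave 4 calls, all higher with PM. The deviations of vehicle 1 and PM 1 correlated at 0.165, and the labels do not say that the numbers pair the mice. For the interaction (54 calls), DESeq2 gave 19, no filter 177, leaving out the mixed barcodes 2, leaving out the deepest 115, and leaving out 1 library 61 to 99. The cause of these moves was not tested. Adgre1 stayed negative with PM in each alternative, from -1.58 to -0.088, and passed the test without vehicle 1 (-1.22). The other markers changed direction. Without the mixed barcodes the log2 fold changes turned to 0.58 for Vcam1, 0.93 for C1qa, 0.63 for C1qb, 0.53 for C1qc, 1.09 for Hmox1 and 0.64 for Slc40a1. Under the stricter gate they turned to 0.21 for C1qa, 0.020 for C1qb and 0.56 for Hmox1, and without the deepest barcodes to 0.33 for C1qa, 0.082 for C1qb, 0.52 for Hmox1 and 0.072 for Slc40a1. The values without the mixed barcodes depend on where the limit is drawn, since deep PM barcodes lay just above it. Hmox1 was also at 0.019 with no filter, 0.041 without called doublets, 0.24 with the replicate block, and 0.0042 with globin, neutrophil and immunoglobulin genes taken out. Leaving out 1 library gave -0.51 to 0.19 for C1qa, -0.70 to 1.41 for Hmox1 and -1.10 to 0.82 for Slc40a1. The globin difference (-2.07 points) was -0.0098 without the mixed barcodes and 0.0142 in the medians, and ranged from -3.35 to -0.794 without 1 library. The neutrophil difference (7.59 points) was 4.85 under the stricter gate, 0.193 without the mixed barcodes and 0.432 in the medians. The limit on mixed barcodes was set on these genes, so no difference between PM and vehicle is read from their values without the mixed barcodes. The share of macrophages ranged from -0.231 to 0.476 points without 1 library. The sums are limited by 60 to 128 barcodes of low depth in each library.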

Other observations

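Other transcripts of lymphoid and plasma cells lay under the macrophage barcodes, at levels that differed between mice of 1 group. Igha, an immunoglobulin heavy chain gene, was at 68.6 and 87.9 CPM with vehicle and at 60.3 and 1008 with PM. Trbc1, a T cell receptor chain, was at 117 and 49.2 with vehicle and at 8.42 and 7.70 with PM. Fn1, a gene of classical monocytes, was at 559 and 130 with vehicle and at 289 and 5.13 with PM. None of the 3 was called between PM and vehicle in the macrophages by edgeR, Trbc1 was among the 54 genes whose PM effect differed from that in monocytes, and they were chosen after their values were seen.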
